A study of Mus musculus with 15 samples.

Results

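The intervals bound by EZH2, by FLAG-tagged EZHIP or marked by H3K27me3 were examined around 9 mouse Wnt ligand genes, 8 of which lie as neighbouring pairs. They were taken as every interval of the deposited EZH2, FLAG and H3K27me3 lists that overlapped 1 of 5 fixed windows in build mm9, of 80 to 150 kb each. The windows were 103.55 to 103.70 Mb of chromosome 11 for Wnt3 and Wnt9b, 59.03 to 59.16 Mb of chromosome 11 for Wnt3a and Wnt9a, 98.58 to 98.66 Mb of chromosome 15 for Wnt1 and Wnt10b, 74.78 to 74.87 Mb of chromosome 1 for Wnt6 and Wnt10a, and 85.33 to 85.44 Mb of chromosome 15 for Wnt7b. Of 2466 intervals in the lists, 17 met this rule, namely 6 of 902 for EZH2, 6 of 438 for FLAG and 5 of 1126 for H3K27me3. All 17 lay wholly inside their window. The windows carry the gene names; gene annotation of build mm9 was not used here, so an interval is described by its window and not assigned to a start site.

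Chromatin immunoprecipitation with sequencing gave these lists in mouse embryonic fibroblasts with floxed EED and wild-type EZHIP expressed from a lentivirus. All 3 libraries share that genotype and the sources used here name no drug for them; each antibody has 1 library, without a replicate, and the other 12 of the 15 libraries of the series (DMSO, tazemetostat, EED knockout or EZHIP M406E) were not analysed here. The lists hold positions only, so depth, enrichment and expression are unknown, the labelled cell type could not be checked against markers, and no comparison with cells lacking EZHIP was made. The H3K27me3 list is labelled as residual H3K27me3, so its widths, edges and gaps describe these EZHIP-expressing cells only. Positions are counted from 1. As deposited, starts lie on a 200 bp grid and ends lie 1 bp before a grid position.

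Wnt proteins are secreted, lipid-modified ligands that bind Frizzled receptors together with the co-receptors LRP5 or LRP6, which stabilizes beta-catenin, or that act through beta-catenin-independent routes. Several vertebrate Wnt genes lie as tightly linked pairs that descend from ancestral linked genes, so that the Wnt3 and Wnt9b pair is the paralogue of Wnt3a and Wnt9a, and Wnt10b lies beside Wnt1 as its paralogue Wnt10a lies beside Wnt6. PRC2, whose catalytic subunit is EZH2, deposits H3K27me3 at CpG-rich start regions of silent developmental genes, EED is its subunit that reads H3K27me3, and EZHIP is a protein inhibitor of the complex.

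In RefSeq (GRCm38.p6), the 2 genes of each pair were direct protein-coding neighbours. Wnt9b lay between Gosr2 and Wnt3, and Nsf followed Wnt3. Wnt3a lay between Arf1 and Wnt9a, Wnt1 between Wnt10b and Ddn, and Wnt10a between Wnt6 and Cdk5r2. Promoter sequences were given there for 7 of the 9 genes, with none used here for Wnt7b and Wnt10a. The 2 genes were on opposite strands in the pairs Wnt3 and Wnt9b, Wnt3a and Wnt9a, and Wnt1 and Wnt10b. The 250 bases upstream of the start are shown for 4 of them, with each CpG dinucleotide in capitals, because PRC2 is known for CpG-rich starts. Wnt3 and Wnt9b represent the window with the most intervals, Wnt1 a window with 1 interval of each list, and Wnt6 the window with none.
Wnt3 (chr11:103773925-103774174, plus strand): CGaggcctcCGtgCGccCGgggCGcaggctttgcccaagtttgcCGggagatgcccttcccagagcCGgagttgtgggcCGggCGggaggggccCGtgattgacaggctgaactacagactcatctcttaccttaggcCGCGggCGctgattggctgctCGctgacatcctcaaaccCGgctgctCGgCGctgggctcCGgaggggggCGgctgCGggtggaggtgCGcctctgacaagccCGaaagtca
Wnt9b (chr11:103749822-103750071, minus strand): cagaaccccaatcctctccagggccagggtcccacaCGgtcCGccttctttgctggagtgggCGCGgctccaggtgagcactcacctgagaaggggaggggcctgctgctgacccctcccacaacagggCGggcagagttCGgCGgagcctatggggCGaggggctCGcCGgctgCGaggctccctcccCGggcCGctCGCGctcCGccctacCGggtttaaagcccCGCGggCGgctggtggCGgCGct
Wnt1 (chr15:98789607-98789856, plus strand): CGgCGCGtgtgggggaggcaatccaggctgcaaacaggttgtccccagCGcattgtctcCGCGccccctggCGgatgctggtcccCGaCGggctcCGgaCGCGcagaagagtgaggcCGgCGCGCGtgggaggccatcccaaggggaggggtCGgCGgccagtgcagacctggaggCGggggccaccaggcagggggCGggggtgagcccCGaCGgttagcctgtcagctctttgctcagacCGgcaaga
Wnt6 (chr1:74771642-74771891, plus strand): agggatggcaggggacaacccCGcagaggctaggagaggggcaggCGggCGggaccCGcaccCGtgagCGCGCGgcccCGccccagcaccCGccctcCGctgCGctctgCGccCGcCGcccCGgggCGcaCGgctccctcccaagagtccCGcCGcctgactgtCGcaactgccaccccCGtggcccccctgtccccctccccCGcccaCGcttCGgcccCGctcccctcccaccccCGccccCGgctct

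CpG dinucleotides (the letters CG, which read the same on both strands) numbered 14 to 48 in the 7 sequences, and 6 of the 7 exceeded the upper quartile of all promoters. There were 22 in both Wnt3 and Wnt9b, 23 in Wnt1 and 28 in Wnt6, beside 14 in Wnt10b, 41 in Wnt3a and 48 in Wnt9a. The median over all 32851 promoters of the table, cut to the same length, was 6 (interquartile range 2 to 16), and 92.1% held at least 1. At least as many CpGs as in Wnt6 were found in 7.61% of all promoters, at least as many as in Wnt3 in 14.8%, and as in Wnt10b in 29.4%. GC content was 68.0% for Wnt3, 72.0% for Wnt9b, 71.6% for Wnt1 and 79.6% for Wnt6, against a median of 52.4%. The Wnt6 promoter, from the window without any interval, held more CpGs than those of Wnt1, Wnt3, Wnt9b and Wnt10b. It held fewer than those of Wnt3a and Wnt9a, whose window had intervals. Any relation between CpG content and the intervals was not tested. These sequences belong to another build than the peaks and were not placed under them.

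**Figure D1:**
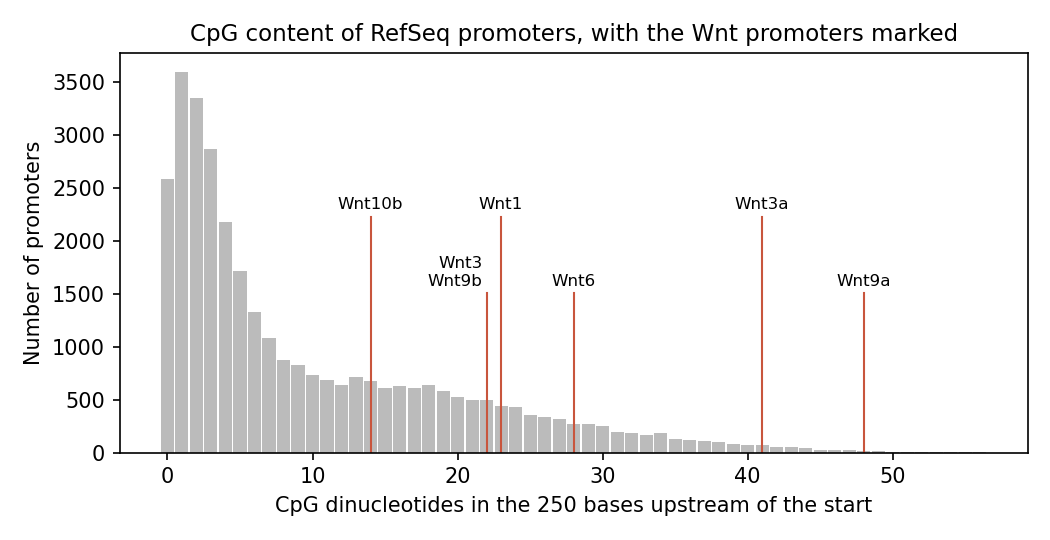
Number of RefSeq promoters (vertical axis) by CpG dinucleotides in the 250 bases upstream of the start (horizontal axis), with red lines at the 7 Wnt promoters, whose heights have no meaning. All 7 lie above the median of 6, from 14 for Wnt10b to 48 for Wnt9a, with Wnt6 at 28.

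EZH2, FLAG and H3K27me3 occurred together in 4 of the 5 windows, and the window of Wnt6 and Wnt10a held no interval of any list. All 6 EZH2 peaks carried FLAG (exact Clopper-Pearson 95% interval 54.1 to 100%), where 45.5% of all 902 EZH2 peaks did. Of the 355 EZH2 peaks from 4799 to 9799 bp, the range of the 6, 70.7% carried FLAG. All 6 also carried H3K27me3, as did 95.2% of the list and 99.4% of the peaks in that range of widths. EZH2 and FLAG were each present at all 5 H3K27me3 peaks (47.8 to 100%), beside 71.7% and 36.1% of all 1126. Those 5 were 3999 to 30399 bp wide, whereas the list began at 399 bp with a lower quartile of 1999 bp. No share matched on width was computed for H3K27me3. The 6 FLAG peaks each met EZH2 and H3K27me3, where 96.6% and 98.6% of all FLAG peaks did. With 5 or 6 peaks per list these confidence intervals are wide. They treat the peaks as independent, although 3 of the 6 EZH2 peaks lie in 1 window. They therefore do not measure an excess over the list. The members were chosen with the lists' results known, and no test was made.

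**Figure D2:**
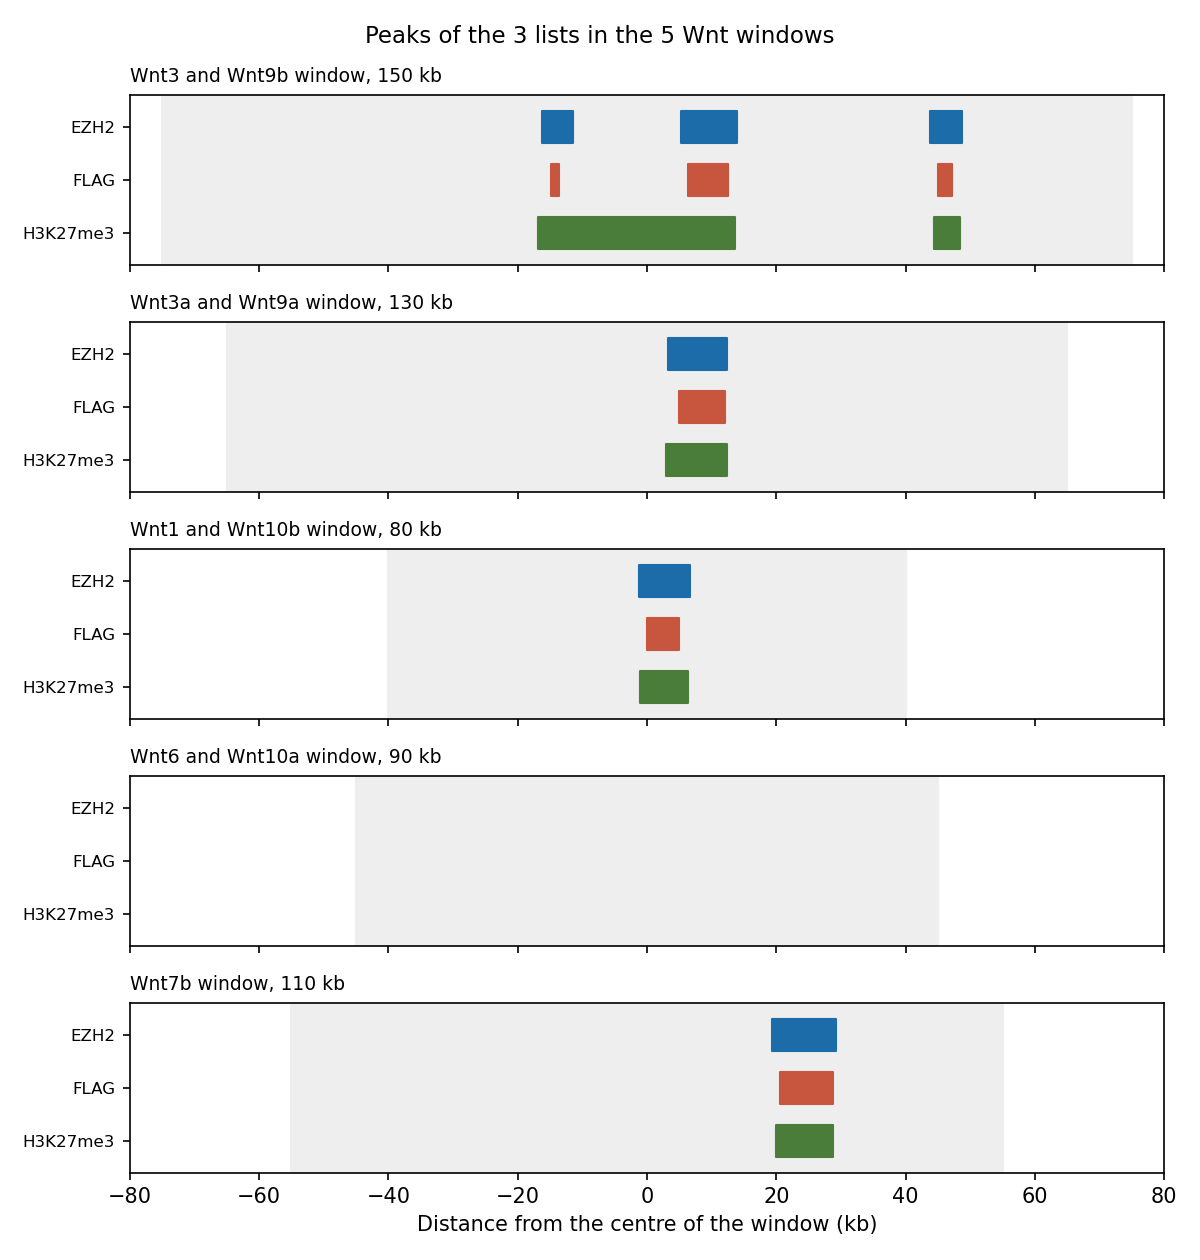
Intervals of EZH2 (blue), FLAG (red) and H3K27me3 (green) in each of the 5 windows (grey), drawn to scale by distance in kb from the centre of the window. The Wnt3 and Wnt9b window holds 3 EZH2, 3 FLAG and 2 H3K27me3 intervals, the Wnt6 and Wnt10a window none, and each of the other windows 1 of each.

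The Wnt3 and Wnt9b window was the most occupied. Wnt3 is a ligand required for primitive streak formation, and Wnt9b is an inducer of kidney tubules. The window held 3 EZH2 peaks, from 103608801 to 103613599 (4799 bp), from 103630201 to 103638999 (8799 bp) and from 103668801 to 103673799 (4999 bp). Each held 1 FLAG peak, from 103610201 to 103611399 (1199 bp), from 103631401 to 103637599 (6199 bp) and from 103670001 to 103672199 (2199 bp). The middle site thus had the widest EZH2 and FLAG peaks of the window, and both outer EZH2 peaks were narrower than the list median of 5199 bp. At 1199 bp the first FLAG peak was among the 11 narrowest of its list, as no FLAG peak was narrower. FLAG was called at both EZH2 peaks under 5 kb of this window. In the whole list, 17 of the 52 EZH2 peaks from 4799 to 4999 bp carried it (32.7%; 20.3 to 47.1%), these 2 included. That range starts at the width of the narrower of the 2, so the share is a description and no test.

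H3K27me3 joined the first and second of these EZH2 sites and left the last apart. A single H3K27me3 peak ran from 103608201 to 103638599 (30399 bp), over 2 EZH2 and 2 FLAG peaks. It was wider than 95.9% of all H3K27me3 peaks. Another ran from 103669401 to 103673399 (3999 bp) over the last EZH2 peak. Between the first and second EZH2 peaks lay 16.6 kb without EZH2, all of it inside the wide H3K27me3 peak, and 56.6% of that peak, or 17201 bp, had no EZH2. Its outer ends stayed close to EZH2: it began 600 bp before the first EZH2 peak and ended 400 bp before the end of the second (a signed distance of -400 bp). The second and last EZH2 peaks were 29.8 kb apart. The 2 H3K27me3 peaks were 30.8 kb apart, and that stretch without H3K27me3 includes the facing ends of both EZH2 peaks.

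Shared and separate H3K27me3 at these gaps was set beside the list by distance. Neighbouring EZH2 peaks that both carried H3K27me3 lay under 1 H3K27me3 peak in 76.2% of cases at gaps of 10 to 20 kb (16 of 21; 52.8 to 91.8%), and in 4.17% at 20 to 40 kb (1 of 24; 0.105 to 21.1%). The gap of 16.6 kb fell in the first class and that of 29.8 kb in the second. Both gaps are counted in the shares of these classes, so this is a description and no test. Of 52 such gaps under a shared H3K27me3 peak, from 43 H3K27me3 peaks, 5 were larger than that of the Wnt3 and Wnt9b window, and the median was 4301 bp (interquartile range 2701 to 11301 bp). A single H3K27me3 peak over exactly 2 EZH2 and 2 FLAG peaks was found 7 times in the list. How the authors' peak caller joined neighbouring stretches is not given in the sources used here.

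**Figure D3:**
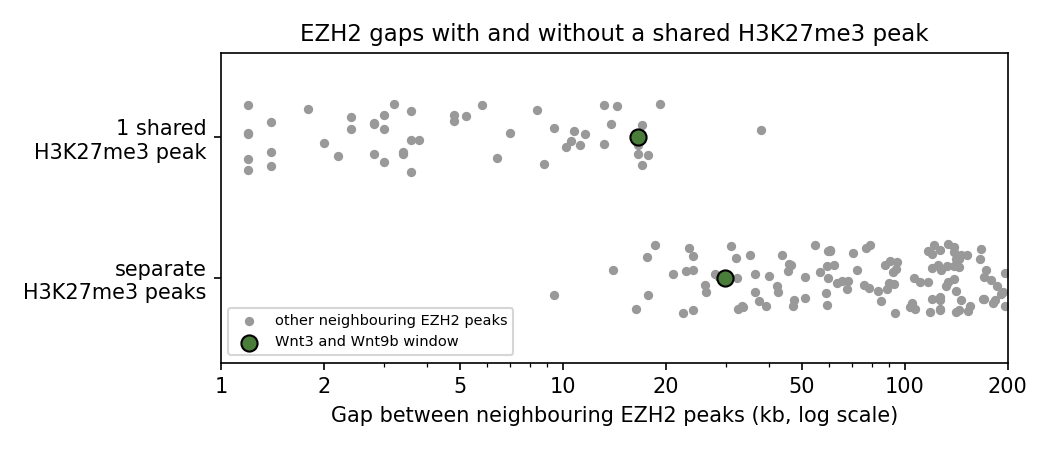
Gap in kb (log scale) between neighbouring EZH2 peaks that both carry H3K27me3, for pairs under 1 shared H3K27me3 peak (upper row) and pairs under separate ones (lower row), shown up to 200 kb with vertical spread for legibility. The 2 gaps of the Wnt3 and Wnt9b window (green) are 16.6 kb in the upper and 29.8 kb in the lower row.

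The paralogous window of Wnt3a and Wnt9a held 1 site. Wnt3a is a beta-catenin-activating ligand needed for somite formation, and Wnt9a takes part in joint formation. EZH2 ran from 59098201 to 59107399 (9199 bp), H3K27me3 from 59098001 to 59107399 (9399 bp) and FLAG from 59100001 to 59106999 (6999 bp). H3K27me3 and EZH2 ended at the same grid position on the right, and H3K27me3 reached 200 bp further on the left, so their widths had a ratio of 1.02. That difference is 1 grid step and cannot be resolved. FLAG was shifted to the right within EZH2, with 1800 bp of EZH2 on its left and 400 bp on its right. Between the paralogous windows, EZH2 thus covered 18597 bp in 3 peaks at Wnt3 and Wnt9b and 9199 bp in 1 peak at Wnt3a and Wnt9a. H3K27me3 covered 34398 and 9399 bp there.

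Wnt1 and Wnt10b shared a window with 1 site. Wnt1 is required for midbrain development, and Wnt10b restrains adipocyte differentiation and promotes bone formation. EZH2 ran from 98618801 to 98626599 (7799 bp), H3K27me3 from 98619001 to 98626399 (7399 bp) and FLAG from 98620001 to 98624999 (4999 bp). H3K27me3 stopped 200 bp inside EZH2 at both ends (-200 bp each), and EZH2 reached 1200 bp beyond FLAG on the left and 1600 bp on the right. Among the sites of the 4 windows with peaks it had the longest stretch without EZH2 on its left, where the nearest EZH2 peak was 781 kb away.

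Wnt6 and Wnt10a, the pair with the other Wnt10 gene, had no interval in its 90 kb window. Wnt6 is expressed in surface epithelia, and Wnt10a acts in tooth and skin appendage development. The nearest intervals lay past the right end, from 74898201 to 74907199 for EZH2 (8999 bp, 28.2 kb from the window), from 74901401 to 74905599 for FLAG (4199 bp) and from 74900401 to 74906599 for H3K27me3 (6199 bp). To the left the nearest EZH2 and H3K27me3 peaks were both 1856 kb away. An absent call does not show an absence of signal, because the thresholds and depth of the lists are unknown.

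Wnt7b, a ligand of lung, kidney and neural development, was the only gene named for its window, which had the widest FLAG and EZH2 peaks of all windows. EZH2 ran from 85404401 to 85414199 (9799 bp), H3K27me3 from 85405001 to 85413799 (8799 bp) and FLAG from 85405601 to 85413799 (8199 bp). FLAG and H3K27me3 ended at the same position on the right, 400 bp inside EZH2. FLAG filled 83.7% of the EZH2 width. Among the 399 EZH2 peaks that meet a single FLAG peak which meets no other EZH2 peak, 8 had a lower EZH2 to FLAG width ratio than the 1.20 seen here. The next FLAG peaks on chromosome 15 were 3362 kb to the left and 9943 kb to the right, although EZH2 with H3K27me3 but no FLAG occurred 718 kb to the left and 447 kb to the right.

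Across windows, the median width of the Wnt peaks was above that of each list. The 6 EZH2 peaks had a median width of 8299 bp (4799 to 9799 bp), against 5199 bp for all 902. FLAG peaks had a median of 5599 bp (1199 to 8199 bp), against 3999 bp for all 438, and H3K27me3 peaks one of 8799 bp (3999 to 30399 bp), against 4599 bp for all 1126. In each list 4 Wnt peaks exceeded the list median, of 6 for EZH2, 6 for FLAG and 5 for H3K27me3. By definition about as many peaks of a list lie above its median as below, so these counts are not read as an excess. The 3 lists overlap at the same sites and are not independent. The Wnt peaks below the median were outer sites of the Wnt3 and Wnt9b window. None of the 6 EZH2 peaks was among the widest: 156 peaks of the list were wider than the Wnt7b peak.

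**Figure D4:**
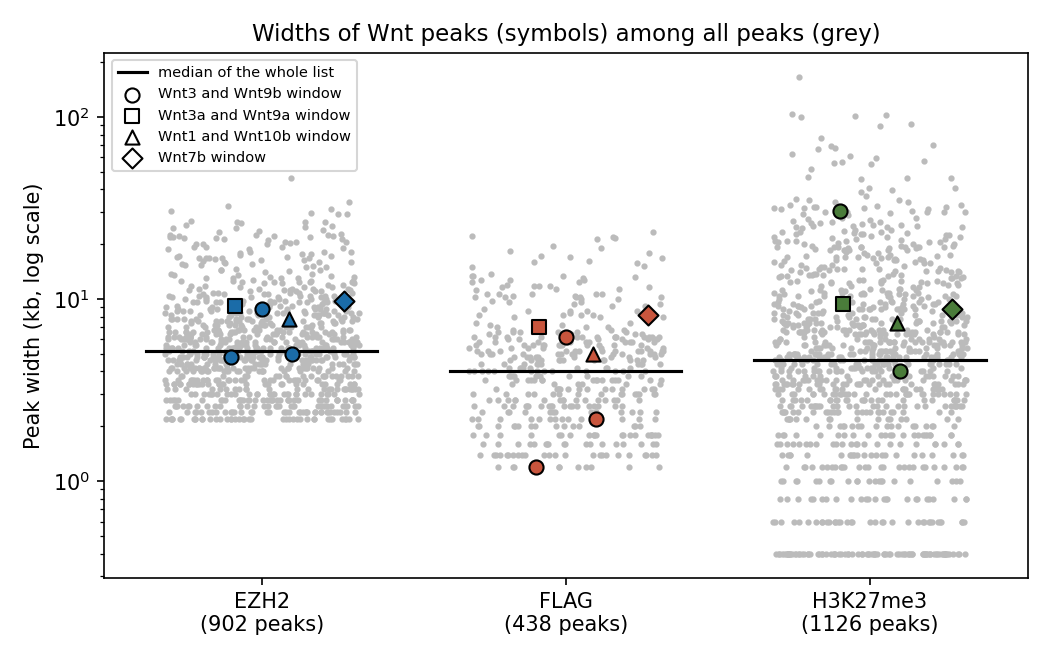
Width in kb (log scale) of every peak in the 3 lists (grey points, horizontal spread for legibility) with the median of each list (black line) and the Wnt peaks as coloured symbols by window. In each list 4 Wnt peaks lie above the line, and the 30399 bp H3K27me3 peak of the Wnt3 and Wnt9b window stands above the other 4.

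FLAG peaks widened with EZH2 peaks at the Wnt genes, with a shrinking margin. In order of EZH2 width, from 4799 bp to 9799 bp, the 6 FLAG widths were 1199, 2199, 4999, 6199, 6999 and 8199 bp, without an exception to the order. EZH2 minus FLAG width was 3600 bp at the first Wnt3 and Wnt9b site, 2800 bp at the last and at Wnt1 and Wnt10b. At the wider sites it was 2600 bp at the middle Wnt3 and Wnt9b site, 2200 bp at Wnt3a and Wnt9a and 1600 bp at Wnt7b. Over all pairs in the lists this margin went the other way. Its median was 3000 bp for 107 pairs with EZH2 of 4 to 6 kb. For 103 pairs of 6 to 8 kb it was 3400 bp (interquartile range 2600 to 4000 bp). The 2800 bp of Wnt1 and Wnt10b lay inside that range. For 66 pairs of 8 to 10 kb the median was 3800 bp (interquartile range 3000 to 4600 bp). The 3 Wnt sites of 8 to 10 kb were all below the lower quartile of that class. FLAG filled 70.5 to 83.7% of EZH2 at these 3, beside a median of 59.1% (49.1 to 65.8%) in the class, which contains them. At the 2 Wnt sites under 5 kb it filled 25% and 44.0%, where the median for 4 to 6 kb was 39.1% (32.0 to 50.9%). These are descriptions of 6 sites, 3 of them from 1 window, with no test.

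**Figure D5:**
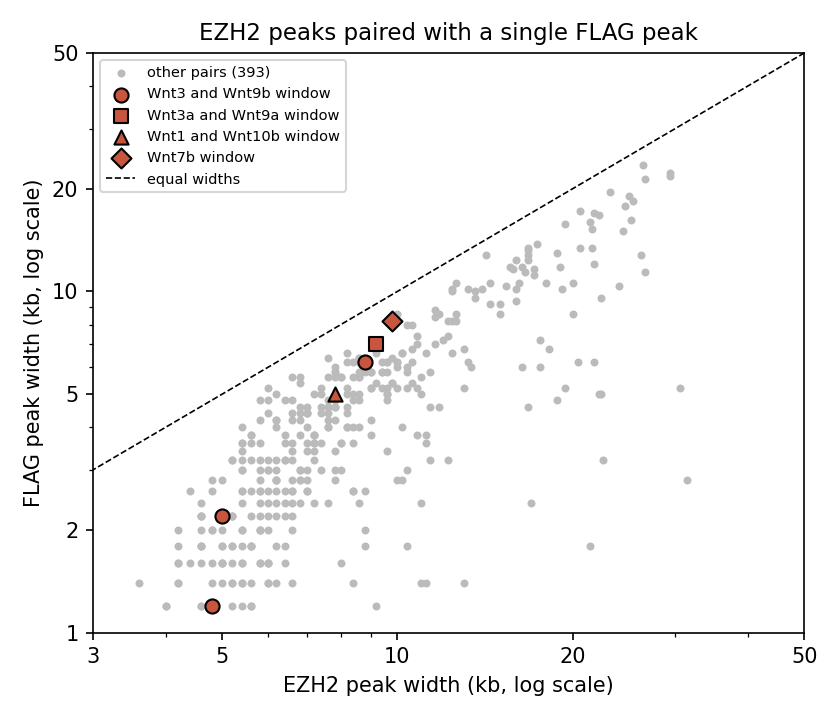
FLAG width against EZH2 width in kb (both log scales) for 399 pairs, with the 6 Wnt pairs as red symbols and the dashed line where the widths are equal. All Wnt pairs lie below the line, the Wnt7b pair nearest to it and the first Wnt3 and Wnt9b pair farthest.

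The 6 FLAG peaks lay inside their EZH2 peaks, as did 100% of the 399 paired FLAG peaks in the lists. The margin of EZH2 around FLAG had a median of 1300 bp per edge (400 to 2200 bp over 12 edges), against 1800 bp (interquartile range 1400 to 2400 bp) over all 399 pairs. The comparisons with all pairs given here are not matched on EZH2 width. In 120 of the 399 pairs EZH2 was 10 to 50 kb wide, wider than at any Wnt site, with a median EZH2 minus FLAG width of 5800 bp. Margins of 400 bp occurred at 2 of the 12 edges, the right edges at Wnt3a and Wnt9a and at Wnt7b, while 3.38% of all 798 edges had a margin of at most 400 bp. FLAG midpoints were 100 to 700 bp from the EZH2 midpoint, with a median of 300 bp, against 400 bp (interquartile range 200 to 700 bp) for all pairs, and the 700 bp offset was that of Wnt3a and Wnt9a. At this grid a difference of 1 step cannot be resolved.

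H3K27me3 edges lay within 600 bp of the EZH2 edges at the 4 sites with 1 peak of each. The width ratio of H3K27me3 to EZH2 was 0.80 at the last Wnt3 and Wnt9b site, 0.90 at Wnt7b, 0.95 at Wnt1 and Wnt10b and 1.02 at Wnt3a and Wnt9a, with 0.90 as the median of 764 such pairs in the lists. Signed distances from the EZH2 edge ran from -600 to 200 bp. At all 8 edges H3K27me3 reached at most 1 grid step beyond EZH2, as it did at 88.5% of the 1528 edges of all pairs. That count includes edges inside EZH2, with signed distances down to -7400 bp over all pairs. By bases, 93.8% of the Wnt EZH2 peaks lay within H3K27me3, beside 86.5% for the whole EZH2 list. All 4 windows with peaks together had 59995 bp of H3K27me3 and 45394 bp of EZH2, a ratio of 1.32, where the whole lists gave 1.49. This ratio above 1 rests on the wide Wnt3 and Wnt9b interval, and was 0.931 without it and its 2 EZH2 peaks.

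Beyond the windows, both chromosome 11 pairs had an EZH2 and H3K27me3 site without FLAG on their left. One ran from 103509001 to 103515799 for EZH2 (6799 bp), 93.0 kb from the first Wnt3 and Wnt9b peak. The other ran from 58988401 to 58992999 (4599 bp), 105 kb from the Wnt3a and Wnt9a peak. On the right the nearest EZH2 peak was 317 kb from the last Wnt3 and Wnt9b peak and 1725 kb from that of Wnt3a and Wnt9a. Widening the windows by 50 kb on each side took in both FLAG-free sites and the site to the right of Wnt6 and Wnt10a, after which 7 of 9 EZH2 peaks carried FLAG. Other Wnt ligands, their receptors and their targets could not be placed in the lists without annotation of build mm9.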

How the data were processed

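The authors deposited 1 list of peak positions per library, as start and end in bp, with no score, height or p-value, and the lists were not pooled. Bowtie 1.0.0, deepTools and build mm9 are named per the submitters' processing notes; for the peak caller, thresholds, control library and depth the sources used here give nothing. As deposited, starts lie on a 200 bp grid and ends lie 1 bp before a grid position. Members were all intervals sharing at least 1 bp with a window. The members and lists were chosen with earlier results of these data known. All 9 genes were named, with every interval. Widths are end minus start as deposited. Overlap needed 1 bp. A pair was formed where a peak of 1 list met exactly 1 peak of another and the reverse held. Shares have exact Clopper-Pearson 95% intervals, which cover counting error only and treat peaks as independent. The overlap, window and joining steps were tested on simulated data. Python 3.11.15, NumPy 2.4.6, SciPy 1.17.1 and matplotlib 3.10.9 were used. Promoter sequences and gene order came from RefSeq tables of GRCm38.p6, and coordinates were not converted between builds. With 1 library per antibody no test between groups was possible.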

Additional observations from a re-analysis of the deposited data

How the results depend on the processing

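All 3 lists carry positions only, so a stricter calling threshold was replaced by leaving out the narrowest 25% of each list. Requiring 50% of the smaller peak changed no overlap count, and counting only peaks wholly inside the window changed no number of peaks. Joining peaks within 5 kb changed none of these counts and no median width. Counting only bases inside the windows left the ratio of bases at 1.32. Leaving out the narrower peaks removed 2 FLAG peaks of the Wnt3 and Wnt9b window, so that 4 EZH2 peaks carried FLAG, and raised the median FLAG width to 6599 bp. Windows widened by 50 kb held 8 H3K27me3 peaks, all 8 with EZH2, and gave median widths of 7799 bp (EZH2), 4999 bp (FLAG) and 6799 bp (H3K27me3), and a ratio of H3K27me3 to EZH2 bases of 1.13. Without the widest H3K27me3 peak and its EZH2 peaks that ratio was 0.931. The last alternative, and the overlap counts in widened windows, were chosen after seeing the data. No paired analysis was possible because each antibody has 1 library.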
